A study of Bos taurus with 6 samples.

Results

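HOX genes are the homeobox genes of the HOXA, HOXB, HOXC and HOXD clusters, and they were taken here as all genes whose symbol is HOXA, HOXB, HOXC or HOXD followed by a number, without antisense names. This rule gave 39 genes, of which 37 are among the 19163 genes with raw counts. HOXB5 and HOXB6 are only in the second deposited table, which holds 21357 genes in TPM. By cluster there are 11 HOXA, 10 HOXB, 9 HOXC and 9 HOXD genes. In F7 bovine embryonic stem cells (bESCs), HOX reads were scarce on both feeder layers, and most of them were in the cells grown on mitomycin C-treated feeders: 552 counts over 3 libraries, against 61 over 3 libraries of cells grown on methanol-fixed feeders.

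HOX proteins are transcription factors that bind DNA through a homeodomain and give cells along the head-to-tail axis their position. The genes lie side by side in their clusters, the paralog number follows their order, and low numbers are used earlier and nearer the head than high numbers. Retinoic acid, Wnt and FGF signals and the CDX factors open the clusters step by step, trithorax proteins keep them on and polycomb proteins keep them off. Pluripotent cells hold the clusters mostly silent, while fibroblasts keep the HOX code of the body region that they come from.

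F7 is a single bESC line of Holstein Friesian origin, derived from an embryo made by in vitro fertilization. MC-F7 cells were grown on mouse embryonic fibroblasts stopped from dividing with mitomycin C (MC-MEFs, living cells), and MT-F7 cells on fibroblasts killed by methanol fixation (MT-MEFs), and medium was changed daily for MC-F7 but on alternate days for MT-F7, so effects of feeder layer and of medium schedule cannot be told apart. Both were kept for 15 passages in medium with FGF and the Wnt inhibitor IWR1, and the dissociated cells were left on a gelatin dish so that attached feeder cells stayed behind before RNA was taken. Each group had 3 libraries of bulk RNA-seq, and the comparison asks how fixed feeders alter the expression profile of bESCs.

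Between 21958386 and 24933430 reads were counted on genes per library. Counts given as on MC-MEFs or on MT-MEFs are those of the MC-F7 or MT-F7 libraries, from replicate 1 to replicate 3. A gene was taken as detected from 3 counts in a library, which is 0.116 to 0.14 counts per 1000000 normalized counts (CPM) at these depths. This limit and all count intervals cover counting error only. Pluripotency marker genes were present in all libraries: NANOG had 1168, 1088 and 723 counts on MC-MEFs and 268, 309 and 223 on MT-MEFs. Of the 5 pluripotency genes tested, NANOG, POU5F1, LIN28A and DPPA4 were lower in MT-F7 and SALL4 did not pass the test. Of all tested genes, 11.3% were lower. SOX2, LIN28B and TDGF1 were not analysed here. The study's statistics section speaks of technical replicates, and whether the libraries came from separate cultures is not stated, so p values measure only the spread between these libraries. In bulk RNA, fewer cells that express a gene and less RNA per cell cannot be told apart, and neither can reads of bovine cells and reads of remaining mouse feeder cells that align to the bovine genome. The study reports that a smaller share of reads aligned to the bovine genome for MC-F7 than for MT-F7. It proposes that fixed feeders reduced the contamination by feeder cells.

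The HOX genes together gave 146, 210 and 196 reads in the cells on MC-MEFs and 33, 15 and 13 in those on MT-MEFs. The groups did not overlap, and the lowest MC-F7 library was far above the highest MT-F7 library. On the scale of normalized counts, their summed level was 8.11 ± 1.45 CPM in MC-F7 and 0.815 ± 0.433 CPM in MT-F7 (SD, n = 3). HOXC4 alone gave 37 of the 61 MT-F7 counts. Without HOXC4 the sums were 141, 187 and 175 against 14, 5 and 5. Without HOXC6 and HOXC9, the HOX genes with the most MC-F7 counts, they were 75, 138 and 145 against 33, 15 and 13, and the groups still did not overlap.

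**Figure D1:**
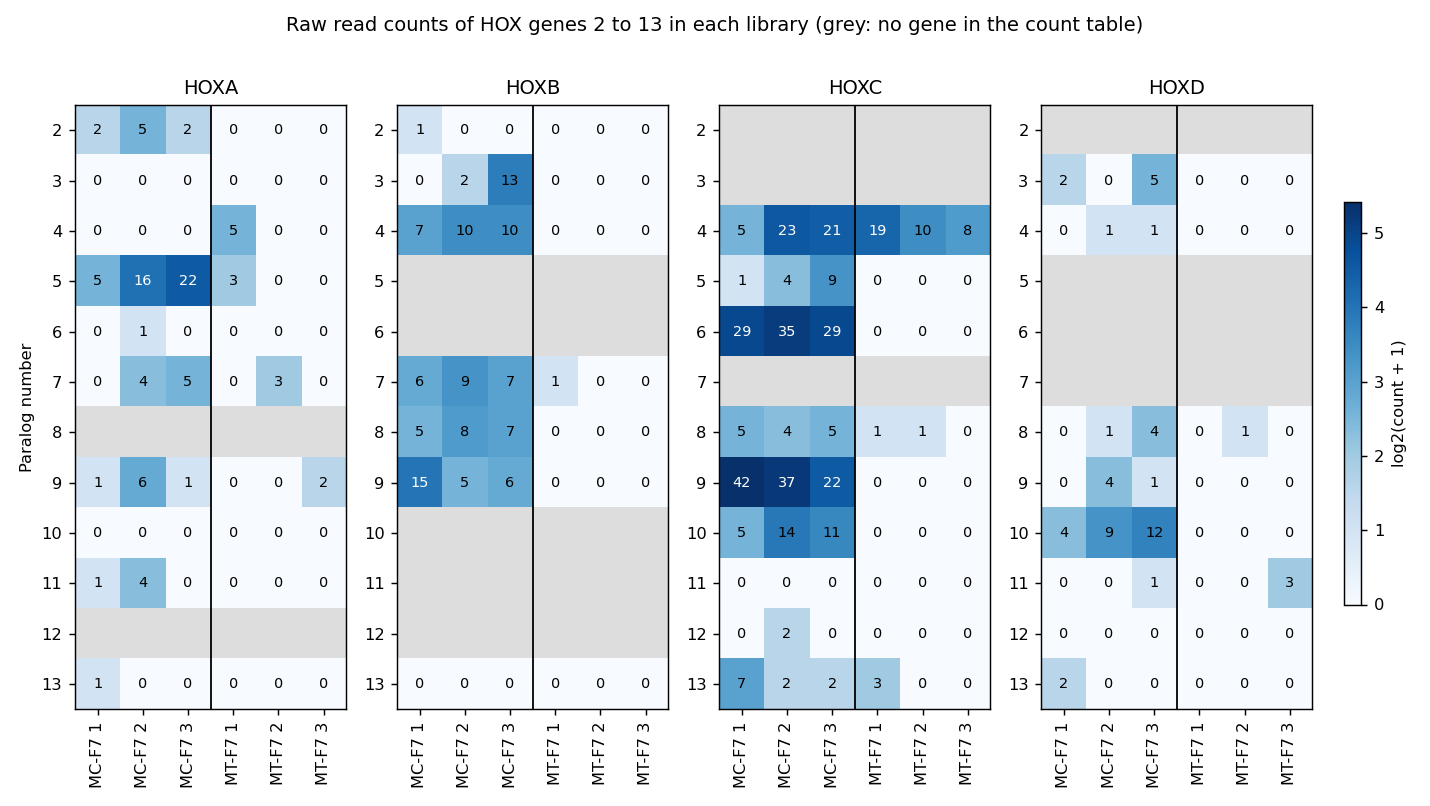
Raw read counts of the HOX genes, by cluster (panels) and paralog number from 2 to 13 (rows), in each of the 3 MC-F7 and 3 MT-F7 libraries (columns). Shading is log2(count + 1), and grey marks positions with no gene in the count table. HOXC6 and HOXC9 are dark in MC-F7 and at 0 in MT-F7, while HOXC4 has counts in all libraries.

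Of the 37 genes in the count table, 31 had at least 1 count. HOXA3, HOXA10, HOXB1, HOXB13, HOXC11 and HOXD12 had none. There were 29 HOX genes with counts on MC-MEFs and 11 on MT-MEFs. In all 3 libraries of a group, counts were found for 15 HOX genes in MC-F7, and in MT-F7 for HOXC4 only. A further measure is how many were read in 1 group alone: 20 HOX genes had counts in MC-F7 and 0 in all MT-F7 libraries, where 3.3% of the 16223 genes with any count did so. Of these 16223 genes, 13001 passed a filter on low counts, while most HOX genes did not. Genes with few reads are more often at 0 in a group, so this share is not matched to the level of HOX genes.

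Counts in every MC-F7 library and in no MT-F7 library were rare across the genome, with 50 such genes or 0.308%. HOXA2, HOXB4, HOXB8, HOXB9, HOXC5, HOXC6, HOXC9, HOXC10 and HOXD10 were 9 of these 50, and HOXC9 and HOXC6 had the most MC-F7 counts of the 50. For 12 HOX genes, these 9 with HOXA5, HOXB7 and HOXC8, every MC-F7 library was above every MT-F7 library in CPM, which was so for 17.7% of all genes. For 0 HOX genes was every MT-F7 library the higher, against 17.2% of all genes. Depth limits most of these values, since 29 of the 37 genes never had more than 10 counts in a library. The shares of all genes are not matched for count level.

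The 4 clusters were all lower in MT-F7 by their sums, and HOXC held the most reads. HOXC genes took 64.4%, 57.6% and 50.5% of the HOX counts in the 3 MC-F7 libraries. Their summed level was 4.6 ± 0.43 CPM in MC-F7 and 0.56 ± 0.311 CPM in MT-F7 (SD, n = 3). The remainder of HOXC in MT-F7 was mostly HOXC4. Without it the cluster had 89, 98 and 78 counts on MC-MEFs and 4, 1 and 0 on MT-MEFs.

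The HOXB cluster had 34, 34 and 43 counts on MC-MEFs and 1, 0 and 0 on MT-MEFs. Its level was 1.64 ± 0.323 CPM against 0.0133 ± 0.023 CPM, so 1 read was all that was left of the cluster in MT-F7. The HOXA cluster had 10, 36 and 30 counts on MC-MEFs and 9, 3 and 2 on MT-MEFs. Here the lowest MC-F7 library (replicate 1) and the highest MT-F7 library (replicate 1) nearly met. The HOXD cluster was read least, with 8, 19 and 24 counts on MC-MEFs and 0, 1 and 3 on MT-MEFs. No test was made of a sum over members.

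**Figure D2:**
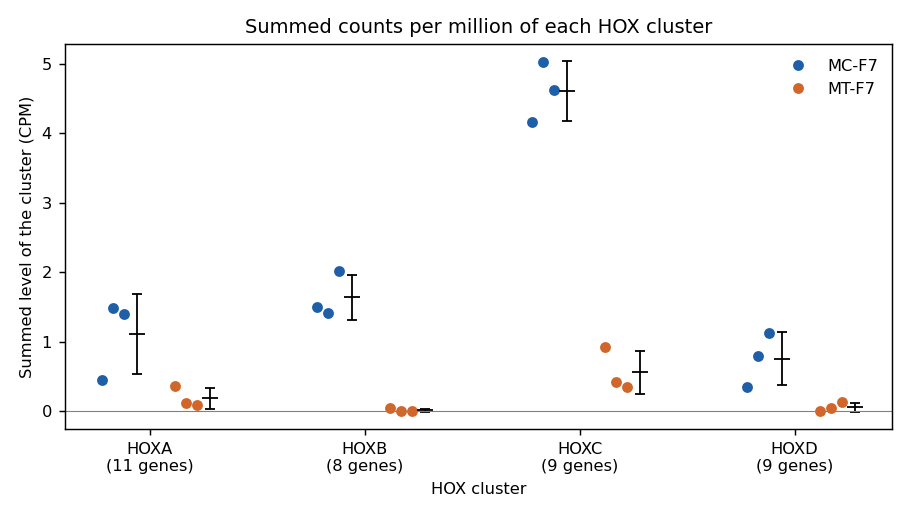
Summed level of each HOX cluster in CPM (linear axis) in the 3 MC-F7 libraries (blue) and 3 MT-F7 libraries (orange), with mean and SD as bars. HOXC is at 4.6 CPM in MC-F7, and HOXB is at 0.0133 CPM in MT-F7. In every cluster the MC-F7 points lie above the MT-F7 points.

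By paralog number, the reads of MC-F7 lay in the middle and at numbers 9 and 10. Of the head-side genes, those with number 2 had 3, 5 and 2 counts and those with number 3 had 2, 2 and 18 counts on MC-MEFs, with 0 in every MT-F7 library. Paralogs 4 to 8 had 63, 116 and 120 counts on MC-MEFs and 29, 15 and 8 on MT-MEFs, and in MT-F7 most of these were HOXC4. Paralogs 9 and 10, genes of the trunk and limb, had 67, 75 and 53 counts on MC-MEFs and 0, 0 and 2 on MT-MEFs. Paralogs 11 to 13, the tail-side genes, had 11, 8 and 3 counts on MC-MEFs and 3, 0 and 3 on MT-MEFs. In this last set the groups met, at 3 counts.

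**Figure D3:**
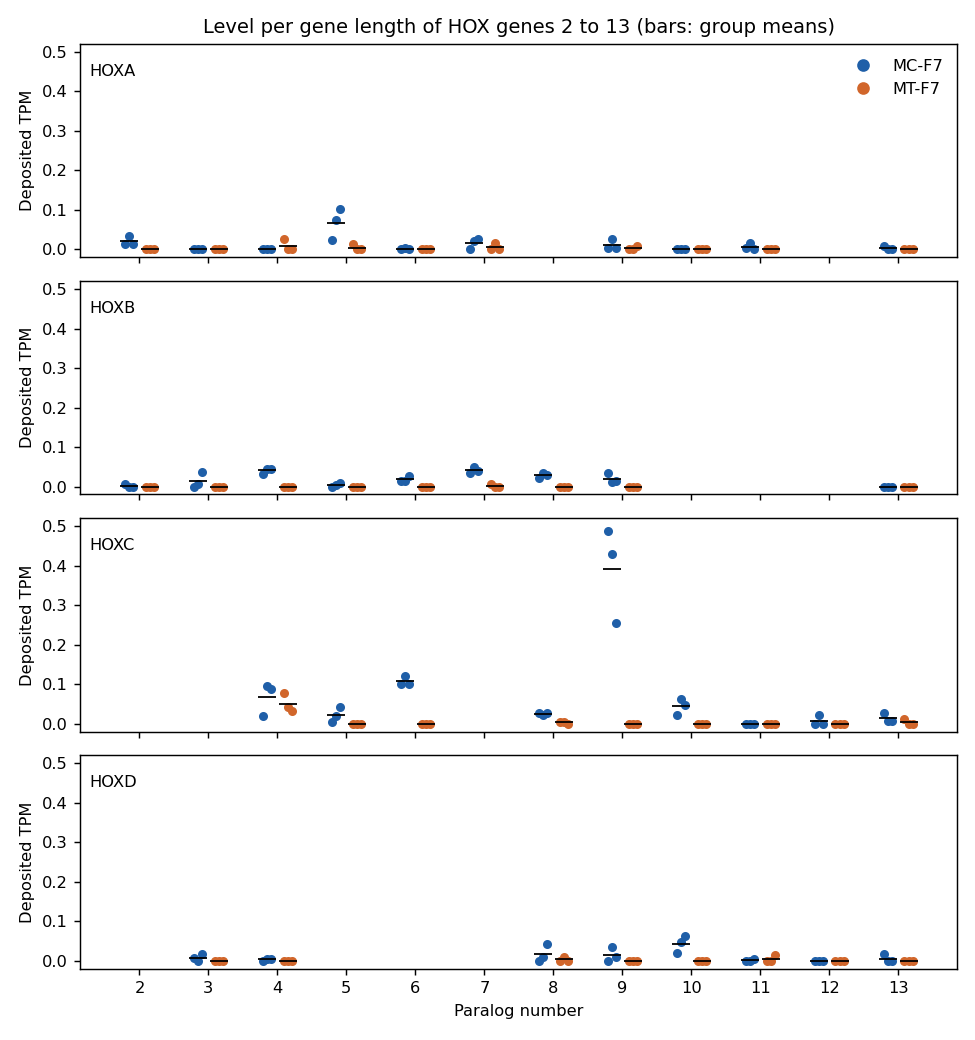
Level per gene length (deposited TPM, linear axis) of each HOX gene by paralog number from 2 to 13, 1 panel a cluster, with a point for each MC-F7 (blue) and MT-F7 (orange) library and bars for the group means. HOXC9 stands highest with a mean of 0.391 TPM in MC-F7. Apart from HOXC6 and 1 library of HOXA5, the other genes lie under 0.1 TPM.

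HOXC9 and HOXC6, which encode regulators of the thoracic level of the trunk, had the most counts of the HOX genes in MC-F7. HOXC9 (Entrez gene 100295214) had 42, 37 and 22 counts on MC-MEFs and 0, 0 and 0 on MT-MEFs. HOXC6 (Entrez gene 317660) had 29, 35 and 29 counts on MC-MEFs and 0, 0 and 0 on MT-MEFs. For both genes all MC-F7 libraries were far above 3 counts and no read was found in MT-F7. Against the limit of 3 counts per library, HOXC9 was at least 12.2-fold lower and HOXC6 at least 11.3-fold lower in MT-F7.

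The test was edgeR's quasi-likelihood test on 13001 genes that passed a filter on low counts, with an adjusted p under 0.05 as threshold. In this fit 11.3% of genes were lower and 11.9% higher in MT-F7. Only HOXC4, HOXC6 and HOXC9 passed the filter. HOXC6 and HOXC9 passed it only through their MC-F7 counts, as they had 0 counts in every MT-F7 library. A gene that passes in this way can show only a fall. HOXC6 and HOXC9 fell, with edgeR adjusted p = 0.00015 and 0.00017. HOXC4 did not pass the test. Of the HOX genes 0 were higher in edgeR, also at an unadjusted p under 0.05, and 0 in DESeq2. The fitted log2 fold changes were -8.02 (SE 0.933) for HOXC6 and -8.14 (SE 0.969) for HOXC9. These values and their SE depend on the small count added to groups at 0, and the bounds above do not.

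Per gene length, HOXC9 was read more than HOXC6 although their counts were close. The deposited TPM of HOXC9 was 0.488, 0.43 and 0.256 in MC-F7, and that of HOXC6 was 0.1, 0.121 and 0.1. The libraries of these genes did not overlap in this level. Even HOXC9 was a low gene, since 44.4% of the 21357 genes had a higher mean TPM in MC-F7, and for HOXC6 the share was 55.8%.

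HOXC4, the first gene of its cluster, was the HOX gene with the most counts in MT-F7. It had 5, 23 and 21 counts on MC-MEFs and 19, 10 and 8 on MT-MEFs. The groups overlapped, with MC-F7 replicate 1 below all MT-F7 libraries. Its level was 0.719 ± 0.431 CPM in MC-F7 and 0.494 ± 0.229 CPM in MT-F7 (SD, n = 3), a log2 fold change of -0.53 (SE 0.591, edgeR adjusted p = 0.56). Whether the change of HOXC4 differs from those of HOXC6 and HOXC9 was not tested.

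When all 16223 genes with at least 1 count were tested, 31 HOX genes could be fitted, 9 were lower in MT-F7 and 0 were higher (13 and 0 at an unadjusted p under 0.05 in edgeR). Of the 31 genes, 20 had 0 counts in every MT-F7 library and could show only a fall. Another 2 had 0 counts in every MC-F7 library and could show only a rise. All lower genes except HOXA5 and HOXB7 were among the 20. In this fit 9.19% of all genes were lower and 9.99% higher. By cluster the lower genes were 1 of HOXA (HOXA5), 4 of HOXB (HOXB4, HOXB7, HOXB8 and HOXB9), 3 of HOXC (HOXC6, HOXC9 and HOXC10) and 1 of HOXD (HOXD10). HOXB4, HOXC6, HOXC9, HOXC10 and HOXD10 passed in all 6 fits that left out 1 library, while HOXB7 passed in 2, HOXB8 in 3, HOXA5 in 4 and HOXB9 in 5. The number of lower HOX genes was 6 without MT-F7 replicate 2 and 10 without MC-F7 replicate 1.

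In the HOXB cluster, HOXB4, a gene also known from blood progenitors, had 7, 10 and 10 counts in MC-F7 and 0 in every MT-F7 library. It was at least 3.29-fold lower (adjusted p = 0.0078 in the edgeR test of all genes with at least 1 count). HOXB8 had 5, 8 and 7 counts and HOXB9 15, 5 and 6 counts in MC-F7, with 0 in every MT-F7 library. These genes were at least 2.43-fold and at least 3.17-fold lower, with edgeR adjusted p = 0.019 and 0.011. HOXB7 had 6, 9 and 7 counts on MC-MEFs and 1, 0 and 0 on MT-MEFs, and the ratio of MC-F7 to MT-F7, corrected for library size, was 24.1 (95% exact interval 3.89 to 994, edgeR adjusted p = 0.031). Thus each of these 4 genes had counts in every MC-F7 library.

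HOXB3, a hindbrain-level gene, had 0, 2 and 13 counts on MC-MEFs and 0 on MT-MEFs. It did not pass the test (edgeR adjusted p = 0.074), and nearly all its reads were in MC-F7 replicate 3. HOXB2 had a single read. HOXB5 and HOXB6 were listed at 0 TPM in every MT-F7 library. In MC-F7, HOXB6 was at 0.0135, 0.0135 and 0.027 TPM and HOXB5 at 0, 0.00509 and 0.0102 TPM.

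The other HOXC genes had fewer reads. HOXC10, a gene of the lumbar level, had 5, 14 and 11 counts on MC-MEFs and 0 on MT-MEFs, at least 3.63-fold lower (edgeR adjusted p = 0.0063). HOXC5 had 1, 4 and 9 counts on MC-MEFs and 0 on MT-MEFs and missed the threshold (edgeR adjusted p = 0.056). HOXC8 had 5, 4 and 5 counts on MC-MEFs and 1, 1 and 0 on MT-MEFs, a ratio of 7.66 (95% exact interval 1.76 to 69.5) that did not pass the test either (edgeR adjusted p = 0.15). Both were read in every MC-F7 library, and the groups did not overlap in either gene. HOXC13, the most tail-side member, had 7, 2 and 2 counts on MC-MEFs and 3, 0 and 0 on MT-MEFs, so the groups overlapped. HOXC12 had 2 counts, both in MC-F7 replicate 2.

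In the HOXA cluster, HOXA5, a gene of lung and cervical-level patterning, had most of the reads. HOXA5 had 5, 16 and 22 counts on MC-MEFs and 3, 0 and 0 on MT-MEFs. The groups did not overlap, and the ratio of MC-F7 to MT-F7 was 15.7 (95% exact interval 5.02 to 79.0, edgeR adjusted p = 0.014). HOXA2, the HOX gene of the foremost hindbrain, had 2, 5 and 2 counts on MC-MEFs and 0 on MT-MEFs (edgeR adjusted p = 0.1).

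HOXA7 had 0, 4 and 5 counts on MC-MEFs and 0, 3 and 0 on MT-MEFs, and HOXA9 had 1, 6 and 1 against 0, 0 and 2. In both genes the groups overlapped. HOXA11, a limb gene, had 1, 4 and 0 counts on MC-MEFs and 0 on MT-MEFs. HOXA4 was read only in MT-F7, with 5, 0 and 0 counts. HOXA6 and HOXA13 had 1 read each, both in MC-F7.

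In the HOXD cluster, HOXD10 was the only gene with counts in every MC-F7 library. HOXD10 had 4, 9 and 12 counts on MC-MEFs and 0 on MT-MEFs, at least 3.06-fold lower (edgeR adjusted p = 0.012). HOXD3 had 2, 0 and 5 counts, HOXD1 0, 4 and 0, and HOXD9 0, 4 and 1 in MC-F7, with 0 in every MT-F7 library. HOXD8 had 0, 1 and 4 counts on MC-MEFs and 0, 1 and 0 on MT-MEFs. These 4 genes each lacked reads in at least 1 MC-F7 library and none passed the test. HOXD11 had 1 count in MC-F7 and 3 in MT-F7, and HOXD4 and HOXD13 had 2 counts each, all in MC-F7.

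Neighbouring HOX genes can share reads. In the RefSeq annotation of the bovine assembly ARS-UCD2.0, 12 of the 37 genes overlap another member: HOXA3 with HOXA4 and HOXA5, HOXA5 with HOXA6, HOXB3 with HOXB4, HOXB8 with HOXB9, HOXD3 with HOXD4 and HOXD10 with HOXD11. HOXB3 also overlaps HOXB5 and HOXB6. How the authors' counting treated reads that lie in overlapping genes is not given in the sources used here, so their division of reads within these groups is uncertain. HOXC6, HOXC9 and HOXC10 are outside them. The 6 microRNA genes of the clusters in the count table had 0 counts in all libraries.

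The proteins that bind DNA together with HOX proteins, the TALE homeobox cofactors, were mostly higher in MT-F7. Of 8 cofactors tested, 5 were higher and 0 lower in MT-F7 in edgeR and in DESeq2, with a median log2 fold change of 0.86 (all tested genes 0.00), where 11.9% of all tested genes were higher. Without MC-F7 replicate 2 or MT-F7 replicate 2, 3 were higher. At an unadjusted p under 0.05 in edgeR, 6 were higher and 0 lower. MEIS1 had 98, 135 and 87 counts on MC-MEFs and 568, 765 and 501 on MT-MEFs, a log2 fold change of 2.39 (SE 0.206, edgeR adjusted p = 5.8e-06). MEIS2 rose by 1.86, MEIS3 by 1.18, PKNOX2 by 1.13 and PBX3 by 0.57 on the log2 scale. In these 5 genes, already called higher, every MT-F7 library was above every MC-F7 library, which was so for 17.2% of all genes. PKNOX1 (log2 fold change 0.16, edgeR adjusted p = 0.58) and PBX4 (-0.13) did not pass, and PBX2 was not analysed here.

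Among 16 genes that induce or pattern HOX genes, 10 could be tested, 4 were higher and 1 lower in MT-F7, with a median log2 fold change of 0.84. Of all tested genes 11.9% were higher and 11.3% lower, so the lower count is near its share. CYP26A1, which degrades retinoic acid, had 366, 290 and 274 counts on MC-MEFs and 2522, 1996 and 1904 on MT-MEFs, a log2 fold change of 2.65 (SE 0.181, edgeR adjusted p = 1.1e-06). CYP26C1, of the same enzyme family, rose by 2.52 and the growth factor FGF8 by 2.81 on the log2 scale. CYP26B1, the third enzyme of the family, fell by 1.61 on the log2 scale (edgeR adjusted p = 0.024), with 33, 33 and 41 counts on MC-MEFs and 11, 7 and 20 on MT-MEFs. This call was lost without MC-F7 replicate 2, MT-F7 replicate 1 or MT-F7 replicate 2.

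The retinoic acid receptor gene RARB, itself a target of retinoic acid, had 29, 32 and 32 counts on MC-MEFs and 15, 4 and 21 on MT-MEFs and did not pass the test (edgeR adjusted p = 0.083). RARA (log2 fold change -0.01), RARG (-0.45), GDF11 (0.78) and EGR2 (0.91) did not pass either. The CDX genes, which activate trunk HOX genes, had few reads. CDX2 had 0 counts in all libraries, CDX1 2 counts in MT-F7 replicate 3, and CDX4 13, 5 and 8 counts on MC-MEFs and 5, 8 and 0 on MT-MEFs. TBXT had 1 count, WNT3A had 9, 1 and 4 against 2, 0 and 0, and ALDH1A2, which makes retinoic acid, had 3, 0 and 0 against 2, 12 and 3.

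Of 24 trithorax and polycomb genes, which regulate the chromatin of the HOX clusters and were all tested, 4 were higher, 3 lower and 17 did not pass, where 11.9% of all tested genes were higher and 11.3% lower. These counts are near those shares, with a median log2 fold change of -0.10. EZH2, the polycomb enzyme that methylates histone H3, rose by 1.01 on the log2 scale (SE 0.16, edgeR adjusted p = 0.00065), and the polycomb members PHC2 and CBX8 rose by 1.13 and 1.34. PHC1 fell by 1.26 on the log2 scale. The other 3 that passed were PCGF2 (higher), KDM6A and JARID2 (both lower), and JARID2 was at the threshold with an edgeR adjusted p = 0.04992. Without MC-F7 replicate 2, MC-F7 replicate 3, MT-F7 replicate 1 or MT-F7 replicate 2, 1 of these genes was lower.

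The genes that flank the clusters were mostly well read. Of 24 flanking genes tested, 0 were lower and 3 were higher in MT-F7 in edgeR, near the 11.9% of all tested genes that were higher, with a median log2 fold change of 0.08. The higher genes were CALCOCO1 (log2 fold change 0.76) and GPR84 (1.64) beside HOXC and COPZ2 (0.78) beside HOXB. At an unadjusted p under 0.05 in edgeR 2 were lower and 4 higher, and in DESeq2 1 was lower and 3 higher. The COPZ2 call was lost without MC-F7 replicate 2, MC-F7 replicate 3, MT-F7 replicate 1 or MT-F7 replicate 2 and in both limma fits. Leaving out any 1 library other than MC-F7 replicate 3 left 1 higher gene beside HOXC. Beside HOXA and HOXD no tested gene passed. Among other HOX-like homeobox genes 2 could be tested, where 11.3% of all tested genes were lower and 11.9% higher. GBX2, a gene of the midbrain and hindbrain border, had 41, 47 and 29 counts on MC-MEFs and 8, 10 and 9 on MT-MEFs and fell by 2.22 on the log2 scale (SE 0.413, edgeR adjusted p = 0.002). GSX2 (log2 fold change 1.92) missed the threshold.

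**Figure D4:**
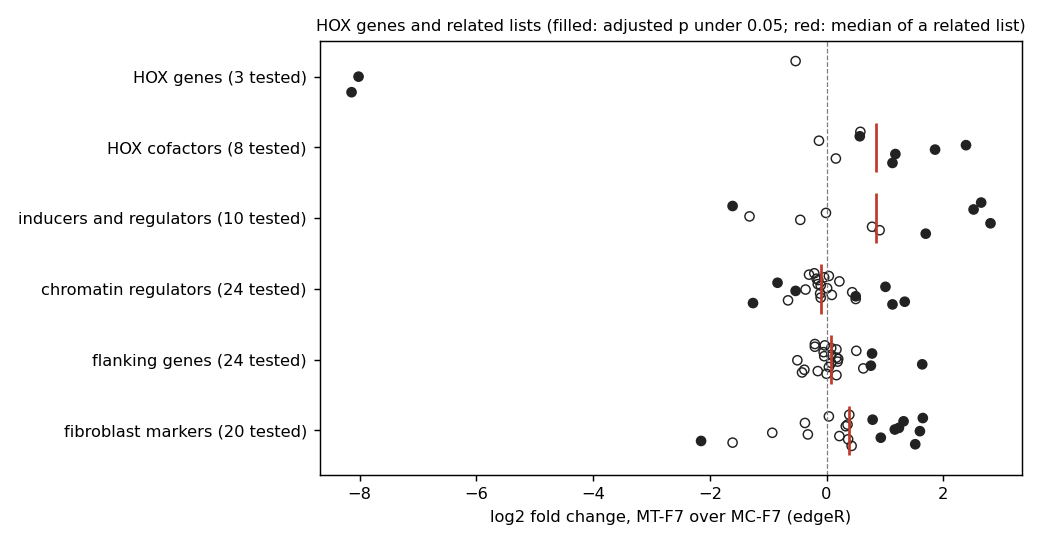
Log2 fold change of MT-F7 over MC-F7 (edgeR, linear axis) for the HOX genes that passed the filter and for 5 related lists, 1 point a gene, filled where the adjusted p was under 0.05, with a red line at the median of each related list. HOXC6 and HOXC9 lie near -8, a value that depends on the count added to groups at 0. Cofactors have a median of 0.86 and flanking genes of 0.08.

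Fibroblast genes were measured because living feeder fibroblasts were present in 1 group only, but their reads cannot be assigned to bovine or mouse cells. The study reports higher transcripts of matrix genes such as collagen IV, fibronectin and laminin in MT-F7. It proposes that some MT-F7 cells differentiated into feeder-like cells. Of 20 fibroblast markers tested, 8 were higher and 1 lower in MT-F7, where 11.9% of all tested genes were higher and 11.3% lower. The other 11 markers did not pass. The summed level of the 22 genes of this list was 466 to 559 CPM in MC-F7 and 943 to 1000 CPM in MT-F7. Of its 6 defining markers PDGFRB rose by 0.93 on the log2 scale, TWIST2 fell by 2.15, and COL1A1 (log2 fold change 0.39), DCN (0.36), LUM (0.33) and PRRX1 (-1.61) did not pass. None of the 6 was at 0 in any library.

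Among the fibroblast markers, every MC-F7 library was above every MT-F7 library only in TWIST2 and PRRX1. This was so for 17.7% of all genes. The reverse held in COL1A1, PDGFRB, COL3A1, COL5A1, COL5A2, POSTN, FBN1, FBLN1 and PRRX2, and in 17.2% of all genes. TWIST2, a regulator of mesenchymal cells, had 49, 39 and 35 counts on MC-MEFs and 2, 13 and 15 on MT-MEFs (SE of the log2 fold change 0.534, edgeR adjusted p = 0.011). PRRX1, of limb mesenchyme, had 14, 11 and 20 counts on MC-MEFs and 4, 6 and 6 on MT-MEFs (edgeR adjusted p = 0.054). FAP had 0, 9 and 7 counts on MC-MEFs and 0 on MT-MEFs, and TCF21 had 0 in all libraries. The part of feeder cells in the HOX counts was not tested.

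Markers of trunk mesoderm, limb and hindbrain or spinal cord, the tissues where HOX genes act, were mostly too low to test. Of 4 tested, PAX3 rose by 3.60 and MESP2 by 2.18 on the log2 scale, while TBX6 (log2 fold change 0.69) and RIPPLY2 (0.48) did not pass. Of all tested genes, 11.9% were higher. The hindlimb genes TBX4 and PITX1 were below the filter: TBX4 had 4, 5 and 8 counts on MC-MEFs and 0, 0 and 1 on MT-MEFs, and PITX1 had 10, 10 and 5 against 3, 3 and 3. In both, all MC-F7 libraries were above all MT-F7 libraries, as in 17.7% of all genes. Also below the filter, the dorsal neural gene LMX1A had 0, 0 and 0 counts against 4, 4 and 1, and the somite clock gene HES7 had 0, 1 and 0 against 2, 4 and 2. In these, all MT-F7 libraries were above all MC-F7 libraries, as in 17.2% of all genes.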

How the data were processed

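RNA-seq of 6 libraries (3 MC-F7 and 3 MT-F7) was used. The authors filtered paired-end reads and used HISAT2 2.0.5 to align them against the Bos taurus genome of Ensembl, and they counted reads with featureCounts 1.5.0-p3. The genome build is not given in the sources used here, so no coordinates are printed. The authors deposited raw counts per Entrez gene, with MC-F7 columns named M1 where the labels write 1M, and these were taken as the same libraries. The authors also deposited values that they call TPM, whose columns add up to 154763 to 164394 and not to 1000000. The ratio of TPM to count was the same in all libraries, within 0.1%, for 9681 of the 9682 genes whose counts were 50 or more in each library. Library size is thus still in the TPM, which served mainly to compare levels between genes.

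The filter on low counts was filterByExpr (at least 10 counts and a total of 15), and genes were tested with edgeR 4.0.16 in R 4.3.3 (TMM, quasi-likelihood, two-sided, no block, Benjamini-Hochberg adjustment over all tested genes). Limits used 3 counts per library, and ratios have exact 95% binomial (Clopper-Pearson) intervals. The SE of an edgeR log2 fold change is its absolute value divided by the square root of the test's F value. Alternatives were RLE factors, no factors, DESeq2 1.42.0, all genes with at least 1 count, a replicate block, each library left out, and limma 3.58.1 on log2(TPM + 1) and log2(TPM + 0.1). Combinations of the fit of all genes with another alternative were chosen after seeing the data. The steps were tested on simulated data.

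Counts are given for HOX genes with at least 4 in a library, and a few genes of the series are not reported here. Cofactors, inducers and defining fibroblast markers are named, with at most 4 other genes a list by the smallest adjusted p. KDM6A, PCGF2, JARID2, FAP, TCF21, COL5A1, POSTN, FBN1, TBX4, PITX1, LMX1A and HES7 were named after their values were seen. The HOX genes and all lists were chosen with earlier results of these data known.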

Additional observations from a re-analysis of the deposited data

How the results depend on the processing

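HOXC6 and HOXC9 were lower and passed the threshold in every alternative run, DESeq2 included, and HOXC4 did not pass in any, with log2 fold changes from -0.98 to -0.02. With 0 counts in every MT-F7 library, HOXC6 and HOXC9 could only be lower in each run. The TPM of HOX genes are their counts times a fixed factor, so the limma runs are not separate data. The number of lower HOX genes was 2 in the filtered test and 9 when all genes with at least 1 count were tested, because 31 and not 3 HOX genes were then tested. It was 2 with RLE factors, with no factors and with DESeq2, 7 in limma with a pseudocount of 1 added to the TPM and 8 with one of 0.1. Leaving out 1 library gave 2 to 5 (5 without MC-F7 replicate 1, MT-F7 replicate 1 or MT-F7 replicate 3, and 4 without MT-F7 replicate 2), and 6 to 10 when all genes with at least 1 count were tested. The filter was applied anew to each smaller set of libraries. Where 4 or 5 HOX genes were lower, more than 3 had passed it. No HOX gene was higher under any alternative. Leaving out 1 library changed the number of HOX genes read only in MC-F7 from 20 to between 17 and 23. The TPM table gave 22, as it also holds HOXB5 and HOXB6, which have no raw counts.

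Over all genes, 1463 were lower and 1553 higher. Leaving out 1 library gave 895 to 1567 lower and 1019 to 1592 higher, with the lowest values without MC-F7 replicate 2. With limma, 820 genes were lower with the pseudocount of 1 and 845 with that of 0.1. In the lists together 10 genes were lower, and 6 to 12 with 1 library left out (6 without MC-F7 replicate 2, MT-F7 replicate 1 or MT-F7 replicate 2).

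The labels give libraries only a replicate number, and whether equal numbers mark a pair is not stated. For libraries with the same number, the correlations of their deviations were 0.134, 0.0445 and 0.417. Replicate 3 of each group correlated best with its own number, but not every library did. With the replicate block, 2 HOX genes were lower in the filtered test and 8 among all genes with at least 1 count, HOXB7 being lost (edgeR adjusted p = 0.051). Over all genes the replicate block gave 2301 lower and 2373 higher, and 16 lower in the lists.

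With TPM in place of CPM the MT-F7 level as a share of the MC-F7 level was 0.187 for HOXA, 0.0109 for HOXB, 0.0861 for HOXC and 0.0819 for HOXD, against 0.168, 0.00809, 0.122 and 0.0733. Of the 37 HOX genes, 29 had at most 10 counts in any library, which limits the precision of each gene's value.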
